A study of Mus musculus with 12 samples.

Results

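Hoxd10 lies in the HoxD cluster on mouse chromosome 2, and the contacts of its promoter were followed by CaptureC in mouse embryonic stem cells (ESCs). In CaptureC, crosslinked chromatin is cut with DpnII and ligated, and the ligation partners of a captured fragment, the bait, are counted, so that reads report nearness to the bait in the nucleus. The Hoxd10 contacts are all rows of the deposited interaction table whose bait coordinates equal those listed for Hoxd10. There were 15 such contacts among 842 interactions in the table, and all lay on chromosome 2. At 8 of them the other end overlapped a joint RING1B and PCGF2 peak, called here a PCGF2 site, and the 7 others are called other sites.

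The series held 12 samples in 4 groups, with 3 replicates in each. All lines were of strain E14. PRC1CPM cells carry Ring1aI50A/D53K, the conditional allele Ring1b(WT->I53A/D56K)fl/fl and the recombinase transgene Rosa26::ERT2-Cre, and they were either untreated or given 800 nM tamoxifen (OHT) for 72 h, which turns Ring1b into a form without catalytic activity. PRC1DEG cells (Tir1; Ring1a-/-; Ring1bAID) and a Control line with Tir1 alone both received 0.5 mM auxin for 6 h, which degrades the tagged RING1B of PRC1DEG cells. The PRC1CPM samples came from 1 clone, clone 41, and the inactivating Ring1a substitutions I50A and D53K are present with and without OHT. PRC1DEG cells also lack Ring1a, which the Control line keeps, so that comparison cannot tell loss of RING1B and of RING1A apart. The auxin samples were captured and normalized separately, so values were compared within each of the 2 systems. Each group is 1 column that merges its replicates, so the spread between replicates is unknown and no difference has a p-value.

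Polycomb repressive complex 1 (PRC1) monoubiquitylates histone H2A through RING1A or RING1B, and its canonical form, which holds PCGF2 or a close relative, binds the histone H3 methylation placed by PRC2. Polycomb target sites are mostly CpG-rich promoters of developmental regulators that are silent in ESCs, and such sites can contact each other over long distances. The HoxD cluster is a classical target. Its genes encode homeodomain transcription factors that specify position along the body axis and the limb, and Hoxd10 belongs to the posterior group. The gene deserts on both sides of the cluster hold limb enhancers.

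The Hoxd10 bait is a DpnII fragment of 794 bp at chr2:74691239-74692032 (GRCm38), which holds the Hoxd10 transcription start site (TSS), coding sequence and UTR. It has a GC content of 58.9% and 46 CpG dinucleotides. Sequences are printed on the forward strand of GRCm38, which is also the strand of Hoxd10, with every CpG in capitals, since CpG content over whole ends differed between the 2 classes of contact. The left capture oligonucleotide (chr2:74691239-74691308) and the 250 bases before the RefSeq start of Hoxd10 (chr2:74691641-74691890) come first, and the promoter stretch holds 20 CpGs.
Hoxd10 left oligonucleotide: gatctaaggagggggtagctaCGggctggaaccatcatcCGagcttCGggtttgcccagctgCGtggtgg
Hoxd10 promoter: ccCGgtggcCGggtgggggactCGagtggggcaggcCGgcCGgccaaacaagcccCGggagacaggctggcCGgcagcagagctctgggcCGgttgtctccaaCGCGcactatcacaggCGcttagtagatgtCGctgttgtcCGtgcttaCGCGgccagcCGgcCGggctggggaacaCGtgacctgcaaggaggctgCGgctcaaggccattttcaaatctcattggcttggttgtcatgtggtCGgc

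Over their whole length most ends at PCGF2 sites held more CpG than those at other sites. Below are the first 300 bases of the summit fragment, the fragment that the table names for each contact, for the Hoxd3 end (chr2:74734953-74735252, intron of Hoxd3), the Lmx1b end (chr2:33639520-33639819, coding sequence of Lmx1b) and the Pax6 end (chr2:105670111-105670410, intron of Pax6). These show the ends with the most reads and with the longest gene-to-gene distances.
Hoxd3 end: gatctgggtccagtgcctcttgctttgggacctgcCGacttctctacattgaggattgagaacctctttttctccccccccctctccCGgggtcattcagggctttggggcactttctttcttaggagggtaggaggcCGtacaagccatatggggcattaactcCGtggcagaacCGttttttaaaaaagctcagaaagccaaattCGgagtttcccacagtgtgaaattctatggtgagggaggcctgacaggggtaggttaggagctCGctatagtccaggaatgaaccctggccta
Lmx1b end: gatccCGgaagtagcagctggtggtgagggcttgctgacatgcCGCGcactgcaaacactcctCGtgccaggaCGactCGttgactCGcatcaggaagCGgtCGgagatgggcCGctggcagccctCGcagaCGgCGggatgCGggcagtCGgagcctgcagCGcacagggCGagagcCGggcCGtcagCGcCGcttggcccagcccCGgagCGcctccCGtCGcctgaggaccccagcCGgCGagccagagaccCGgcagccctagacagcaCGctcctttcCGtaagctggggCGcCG
Pax6 end: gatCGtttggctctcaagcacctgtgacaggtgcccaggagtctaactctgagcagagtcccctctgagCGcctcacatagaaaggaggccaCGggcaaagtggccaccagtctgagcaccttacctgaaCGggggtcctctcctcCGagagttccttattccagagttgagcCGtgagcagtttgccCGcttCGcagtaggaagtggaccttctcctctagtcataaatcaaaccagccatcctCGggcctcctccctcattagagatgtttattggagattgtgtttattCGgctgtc
The windows hold 7, 32 and 10 CpGs. The same window follows for the other site with the most reads (chr2:75591958-75592257, in the telomeric gene desert, 7 CpGs) and for the summit of a contact at a PCGF2 site that holds a tandem repeat (chr2:116557331-116557630, intergenic, 0 CpGs).
Telomeric other site: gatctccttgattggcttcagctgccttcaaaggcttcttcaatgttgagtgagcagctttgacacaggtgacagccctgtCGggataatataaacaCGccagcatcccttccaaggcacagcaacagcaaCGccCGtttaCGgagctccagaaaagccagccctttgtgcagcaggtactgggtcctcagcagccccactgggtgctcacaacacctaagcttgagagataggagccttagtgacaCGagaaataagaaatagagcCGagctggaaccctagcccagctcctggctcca
Repeat end: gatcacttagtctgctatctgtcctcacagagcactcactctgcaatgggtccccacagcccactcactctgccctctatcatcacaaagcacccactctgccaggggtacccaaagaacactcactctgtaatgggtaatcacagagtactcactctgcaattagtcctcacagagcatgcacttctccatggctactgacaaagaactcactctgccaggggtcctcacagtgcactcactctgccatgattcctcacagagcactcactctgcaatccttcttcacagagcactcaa

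Over whole ends, the median ratio of observed to expected CpG was 0.486 at the 8 PCGF2 sites (range 0.0104 to 0.848) and 0.206 at the 7 other sites (0.143 to 0.331). Without an end that holds the tandem repeat, the 7 remaining PCGF2 sites had a median of 0.515 (0.309 to 0.848). The 300-base windows alone do not separate the classes, with 0 to 32 CpGs at PCGF2 sites and 2 to 9 at other sites. The median GC content of whole ends was 53.2% and 41.8%. The same split was seen for the other named baits, where 122 contacts at PCGF2 sites had a median CpG ratio of 0.455 and 277 contacts at other sites had 0.228. The repeat end stood apart with 2 CpGs in 3.52 kb. At 73.9% of its positions the base equalled that 29 bases further on, whereas the next highest value among the Hoxd10 ends was 37.7%. Of 97 ends on chromosome 2, 3 reached 60% in this measure, and the other 2 were ends of the Nkx2-2 bait in the same stretch of chromosome. The summit fragment listed for the repeat end also lies outside the end itself, as in 4 interactions of the whole table. The main sums, counts and medians of reads that include the repeat end are also given without it.

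Of the 8 PCGF2 sites reached by Hoxd10, 7 lay over 1 Mb away, but the local one held the most reads. The distal ends included those at the developmental regulators Sp9, Dlx1 and Dlx2, Lmx1b and Pax6, and the others were at Lrp2 and at the repeat. Only the Hoxd3 end lay within 1 Mb, at 43.9 kb. It covers 1.09 kb and 3 fragments (chr2:74734953-74736046) and lies in an intron of Hoxd3, an anterior HoxD gene, 0.469 kb from a Hoxd3 TSS. The Sp9 end (chr2:73268827-73279031, 10.2 kb, 16 fragments) lay 1.42 Mb to the centromeric side and holds the TSS of Sp9, a zinc finger transcription factor. The Dlx1/Dlx2 end (chr2:71527527-71546341, 18.8 kb, 46 fragments) lay 3.15 Mb away on that side, with the TSS of Dlx1 inside and that of Dlx2 within 5 kb. Dlx1 and Dlx2 are homeobox genes of forebrain interneurons. The 5 remaining ends lay over 5 Mb away.

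Of those 5, a pair of single fragments lay 5.11 and 5.10 Mb away at Lrp2, which encodes the endocytic receptor megalin. One is in an intron (chr2:69582504-69583530) and the other is 1.3 kb upstream of the TSS (chr2:69587365-69588008). The Lmx1b end (chr2:33639520-33639873) lay 41.1 Mb to the centromeric side and 0.638 kb from the TSS of Lmx1b, a LIM homeobox gene of dorsal limb patterning. The Pax6 end (chr2:105670111-105670518) lay 31.0 Mb to the telomeric side and 1.21 kb from a TSS of Pax6, the eye and forebrain regulator. The repeat end (chr2:116558433-116561952) lay 41.9 Mb to the telomeric side, 317 kb from the nearest protein-coding TSS, that of Tmco5.

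The median distance of the PCGF2 sites from Hoxd10 was 5106 kb, with 1 under 100 kb, 0 from 100 kb to 1 Mb and 7 over 1 Mb. Across all 130 contacts of named baits at PCGF2 sites the median was 951 kb, and 63 lay over 1 Mb. A protein-coding TSS lay within 5 kb of 7 of the 8 ends, and inside 2 of them. Of 28 developmental regulators listed for chromosome 2, 5 had a TSS within 5 kb of a Hoxd10 contact (Lmx1b, Dlx1, Dlx2, Sp9 and Pax6). Dlx1 and Dlx2 share 1 end, and the Lmx1b and Pax6 ends passed the score only in Control. The list was chosen with earlier results of these data known. Shares over all genes of chromosome 2 or over the ends of other baits were not computed, so these counts are descriptions only. Of 12 genes of the HoxD cluster and its flanks, only Hoxd3 did, but the 12 include Hoxd10, the bait itself. A gene without a contact here is one with no interaction that passed the score in any group, which does not show that contact is absent. Among all named baits the nearest contact at a PCGF2 site lay 18.9 kb from its bait, whereas Hoxd9 and Hoxd8 lie 6.09 and 13.0 kb from the Hoxd10 bait.

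The reads behind the contacts were few. All values came out as whole weighted reads at a tolerance of 0.1, and the normalized value of 1 read was 0.00112 (untreated PRC1CPM), 0.00122 (OHT), 0.00159 (Control) and 0.00149 (PRC1DEG). The 15 Hoxd10 contacts held 833, 455, 675 and 364 weighted reads in these groups, of 102920, 70920, 83656 and 66102 over the whole table. Intervals below are 95% Wilson intervals of the treated library's share of the reads of a pair of libraries, converted to ratios. Reads carry no molecular identifiers, so these intervals and the floor of 3 reads cover counting error only.

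**Figure D1:**
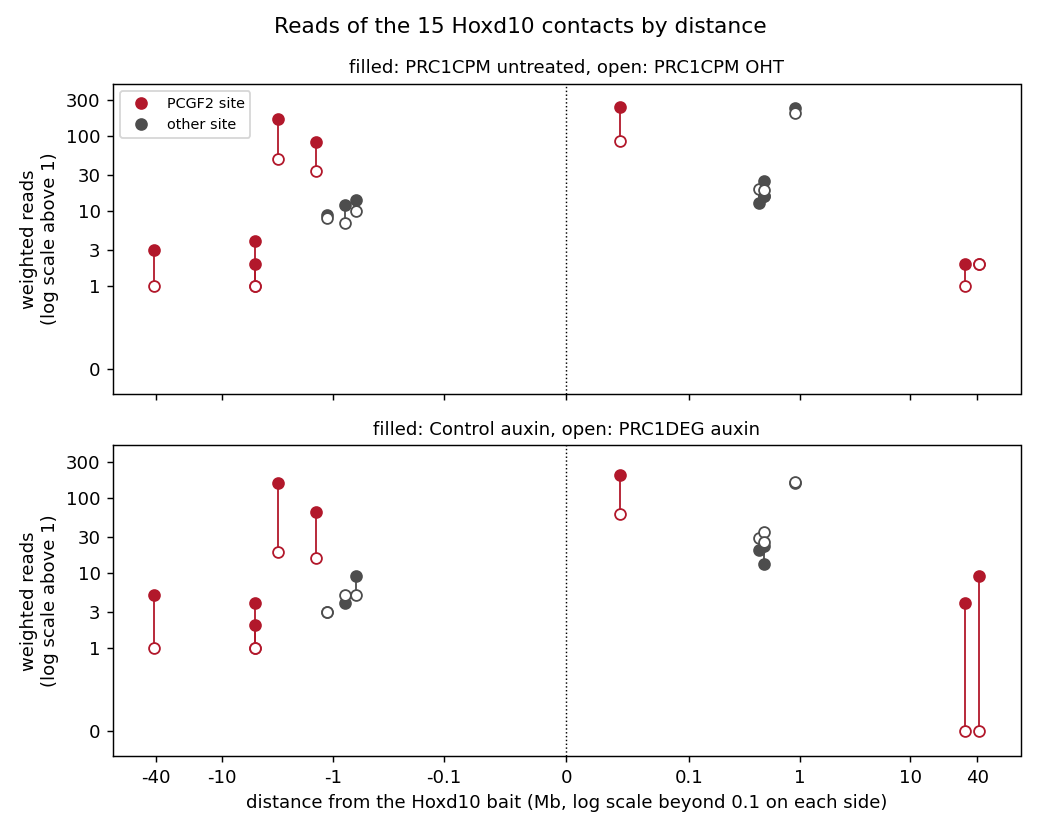
Weighted reads (vertical axis, log scale above 1) of the 15 Hoxd10 contacts against their distance from the bait (horizontal axis, Mb, negative to the centromeric side), with the PRC1CPM libraries in the upper panel and the auxin libraries in the lower panel; filled points are untreated or Control, open points are OHT or PRC1DEG, and lines join the values of 1 contact. At PCGF2 sites (red) the open points lie below the filled ones, except at the repeat end in PRC1CPM cells where both are 2 reads, whereas at other sites (grey) they lie on both sides.

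The Hoxd3 end, the local contact, had the most reads. It held 243 weighted reads without and 85 with OHT in PRC1CPM cells, and 200 in Control against 60 in PRC1DEG cells. After OHT 38.2% of the normalized reads were kept (95% interval 29.9% to 48.9%), a log2 change of -1.39. In PRC1DEG cells 28.0% were kept (21% to 37.4%), a log2 change of -1.84. Both intervals lie far below 100%.

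The Dlx1/Dlx2 end held 168 reads in untreated PRC1CPM cells and 49 after OHT. The Control library had 159 reads there, and PRC1DEG cells 19. The share kept was 31.9% after OHT (23.2% to 43.8%) and 11.2% in PRC1DEG cells (6.97% to 17.9%), so the log2 changes were -1.65 and -3.16. This was the contact with the lowest share kept in both systems among the 3 that had over 3 reads in every group.

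The Sp9 end held 84 reads without and 34 with OHT in PRC1CPM cells, and 64 in Control against 16 in PRC1DEG cells. It kept 44.2% after OHT (29.8% to 65.7%) and 23.4% in PRC1DEG cells (13.6% to 40.1%). The reads of these 3 contacts were thus lower in both treated groups by more than their counting error. The Hoxd3 and Sp9 ends passed the interaction score only in untreated PRC1CPM cells, so that value had a part in their selection. Its share in their OHT change was not tested.

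Levels per length set the local contact apart from the distal ones. In untreated PRC1CPM cells the Hoxd3 end had 222 weighted reads per kb, the Dlx1/Dlx2 end 8.93 and the Sp9 end 8.23. In Control the values per kb were 183, 8.45 and 6.27. After OHT they were 77.7, 2.60 and 3.33 reads per kb, and in PRC1DEG cells 54.8, 1.01 and 1.57. Per kb, the Dlx1/Dlx2 end was thus just above the Sp9 end in the reference groups and below it in both treated groups. Per DpnII fragment the Sp9 end was above the Dlx1/Dlx2 end in all 4 groups, with 5.25 against 3.65 reads in untreated PRC1CPM cells and 1.0 against 0.413 in PRC1DEG cells, so the order of these 2 ends depends on the scale.

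The 5 ends over 5 Mb away had at most 9 reads each in any group. The Lmx1b end had 3 reads without and 1 with OHT in PRC1CPM cells, and 5 in Control against 1 in PRC1DEG cells. The intronic Lrp2 end had 4 and 1 in PRC1CPM cells and 2 and 1 in the auxin libraries, and the upstream Lrp2 end had 2 and 1, then 4 and 1. A ratio is not given where both groups have 3 reads or fewer.

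The Pax6 end had 2 reads in untreated PRC1CPM cells and 1 after OHT. In the auxin libraries it had 4 (Control) and 0 (PRC1DEG), which is 1.43-fold lower with the value of 0 set to the floor of 3 reads. The repeat end had 2 reads in both PRC1CPM groups, 9 in Control and 0 in PRC1DEG cells, 3.21-fold lower with the same floor. These folds leave out counting error and are not lower bounds. Where the treated group had 1 read, the intervals of the share kept reached past 100%. The Lmx1b end kept 18.7% in PRC1DEG cells (2.89% to 121%), the upstream Lrp2 end 23.4% (3.51% to 155%), and the intronic Lrp2 end kept 27.3% after OHT (4.11% to 182%). Where the treated group had 0 reads, in PRC1DEG cells, the upper limit of the interval was 89.7% at the Pax6 end and 39.9% at the repeat end. These limits rest on 4 and 9 Control reads, and the intervals were not checked on simulated data at so few reads.

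Summed over these 5 ends, a grouping made after their values were seen, the reads were 13 without and 6 with OHT in PRC1CPM cells, and 24 in Control against 3 in PRC1DEG cells. The sum kept 50.4% after OHT (19.8% to 128%), and 39.7% (13.4% to 118%) without the repeat end, neither of which is a detectable change at this depth. In PRC1DEG cells it kept 11.7% (3.74% to 36.4%), and without the repeat end 18.7% (5.79% to 60.3%). Of these 5 ends, 4 had an interaction score above 0 in Control and in no other group, the repeat end among them with a mean of 10.3 over its fragments. They held 22 of the 24 Control reads, so the Control value itself had a part in their selection, and its share in the difference was not tested.

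Taking all 8 PCGF2 sites, 7 had fewer normalized reads after OHT than before, where 73.8% of all 842 interactions did. In PRC1DEG cells 8 had fewer than in Control, beside 50.2% of all interactions. A ratio could be given for 4 contacts after OHT, with a median log2 change of -1.28 (range -1.65 to -0.29), and for 7 in PRC1DEG cells, with a median of -1.68 (-3.16 to -0.51). In these medians and counts, values under 3 reads were set to 3. At least 1.5-fold lower were 3 of the 4 after OHT, where 25.7% of the 822 interactions of the whole table with a ratio were, and 5 of the 7 in PRC1DEG cells, where 17.8% of 790 were. The contacts not past the fold were the intronic Lrp2 end after OHT and the upstream Lrp2 and Pax6 ends in PRC1DEG cells. Each had 4 reference reads, so with the floor it could be at most 1.22-fold or 1.43-fold lower and could not pass. The contacts of other named baits at PCGF2 sites had medians of -0.87 (n = 111) and -1.36 (n = 113), and 72.1% and 77.9% of them were past this fold. The Hoxd10 counts were near these shares, but they depend on the floor and on which contacts entered the table. Weighted by reads, the 8 contacts kept 37.4% of their normalized reads after OHT (31.5% to 44.5%) and 20.5% in PRC1DEG cells (16.5% to 25.5%). Without the repeat end these shares were 37.2% and 20.9%, 4 of 6 contacts were at least 1.5-fold lower in PRC1DEG cells, and the median there was -1.34. The repeat end had no ratio after OHT.

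The local and the distal contacts were also summed apart. The Hoxd3 end at 43.9 kb kept 38.2% after OHT and the 7 contacts over 1 Mb kept 36.7% (28.9% to 46.6%). In PRC1DEG cells the Hoxd3 end kept 28.0% (21% to 37.4%), above the 14.4% (10.2% to 20.2%) of the contacts over 1 Mb, and these intervals do not overlap. Without the ends over 5 Mb, and so without the repeat end, the distal sum kept 36.0% after OHT and 14.7% (10.3% to 20.9%) in PRC1DEG cells. That sum is mostly the Dlx1/Dlx2 end. The Sp9 end alone kept 23.4% (13.6% to 40.1%) in PRC1DEG cells, which overlaps the Hoxd3 interval, so the contrast does not hold for each distal contact.

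**Figure D2:**
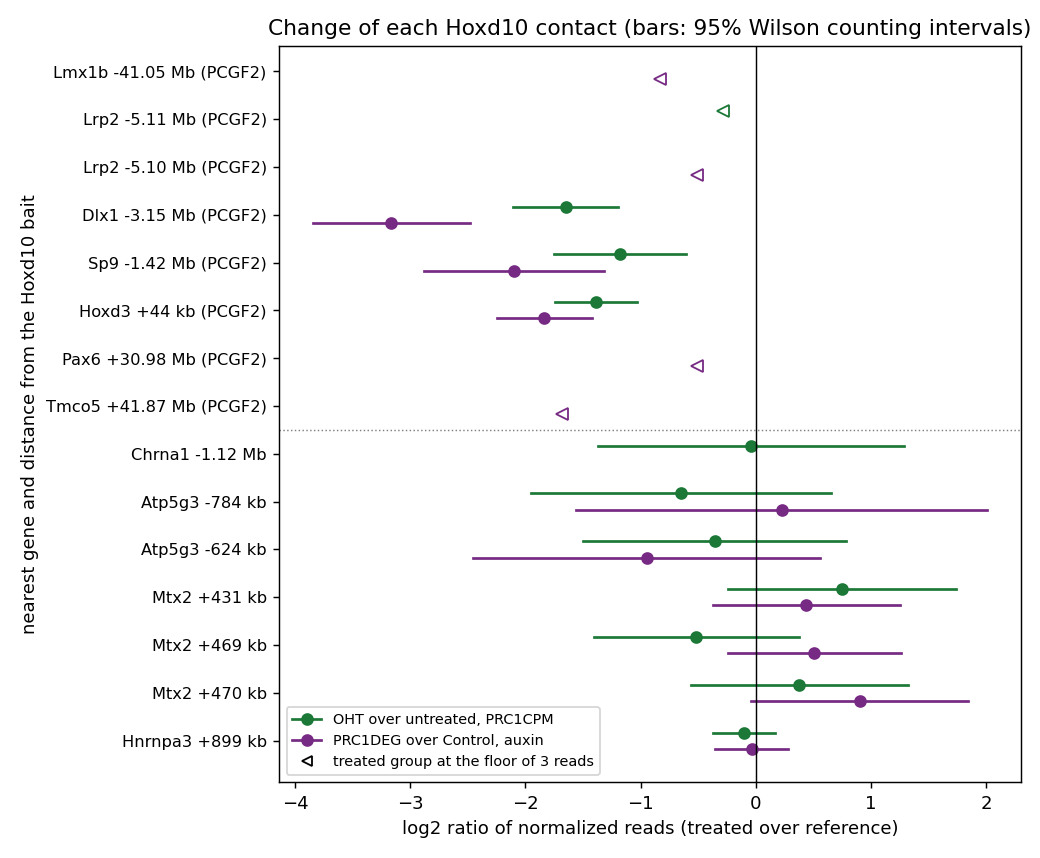
Change of each Hoxd10 contact as the log2 ratio of normalized reads, treated over reference (horizontal axis), by nearest gene and distance from the bait (vertical axis, PCGF2 sites above the dotted line); points with bars are ratios with 95% Wilson counting intervals, green for OHT and purple for PRC1DEG, open triangles have a treated value set to the floor of 3 reads, and no point is drawn where both groups have 3 reads or fewer. The Dlx1/Dlx2, Sp9 and Hoxd3 ends lie between -3.16 and -1.18 with bars that do not reach 0, and every bar at the other sites crosses 0.

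The 2 systems could be compared at the Dlx1/Dlx2, Sp9 and Hoxd3 ends. The difference of the log2 changes, PRC1DEG minus OHT, was -1.51 at the Dlx1/Dlx2 end, with a counting interval from -2.34 to -0.69. It was -0.92 at the Sp9 end (-1.90 to 0.06) and -0.45 at the Hoxd3 end (-1.0 to 0.10). The counting interval lay below 0 only at the Dlx1/Dlx2 end among these 3. The systems differ in what is done to RING1B, which stays without catalytic activity in 1 and is degraded in the other. They also differ in the Ring1a genotype of treated and reference groups, in line, in time of treatment and in capture. Which of these goes with the difference cannot be told apart.

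At PCGF2 sites the interaction score passed its threshold only in the reference groups, untreated PRC1CPM and Control. The CHiCAGO score compares a fragment's reads with a distance-dependent background, and the study's threshold is 5. A summit score of at least 5 was found for 4 of the 8 PCGF2 sites in each reference group, and for 0 after OHT and 0 in PRC1DEG cells. Over all 842 interactions the shares were 58.8% (untreated), 33.6% (OHT), 20.1% (Control) and 17.9% (PRC1DEG). Only the Dlx1/Dlx2 end passed in both reference groups, with scores of 8.81 and 8.33, and its score was 0 in both treated groups. The Lmx1b end had the highest score of the 8, 12.7 in Control, from 5 reads at 41.1 Mb, and a score of 0 elsewhere. Conversely, the Hoxd3 end with its 243 reads scored 5.65 and 1.55 in PRC1CPM cells without and with OHT, and 3.39 and 0.136 in Control and PRC1DEG cells. An interaction entered the table if it passed in any group, so contacts that passed only in a reference group were partly chosen for a high value there. Restricted to contacts that passed in the reference library of the other system, the Dlx1/Dlx2 end alone gave the OHT change, -1.65, and the median change in PRC1DEG cells was -2.10.

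**Figure D3:**
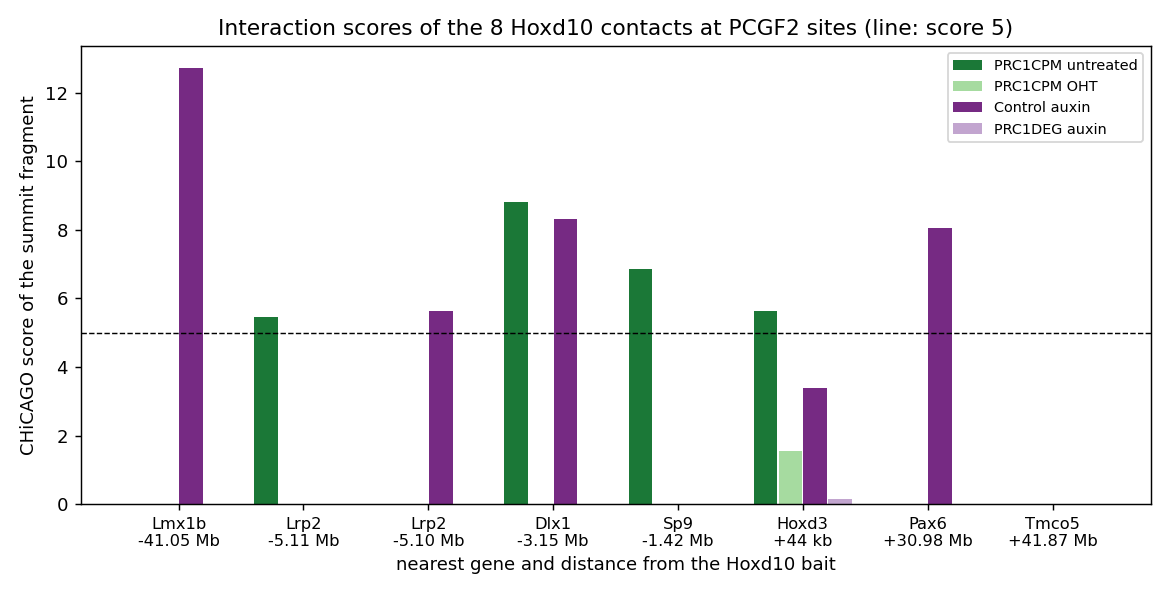
CHiCAGO score of the summit fragment (vertical axis) for the 8 Hoxd10 contacts at PCGF2 sites (horizontal axis, nearest gene and distance from the bait) in the 4 groups, 1 bar for each merged group; the dashed line marks a score of 5. Bars pass the line in untreated PRC1CPM cells (dark green) and Control (dark purple), none does in the treated groups, and the end nearest to Tmco5, the repeat end, has no bar because its listed summit scored 0 in all groups.

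The summed reads at other sites did not change beyond counting error. They lay 431 to 1122 kb from Hoxd10, with 3 on the centromeric and 4 on the telomeric side. The end with the most reads covers 19.3 kb and 37 fragments (chr2:75580588-75599929), 899 kb to the telomeric side and 59.3 kb from the TSS of Hnrnpa3, an RNA-binding protein gene. It held 236 weighted reads without and 201 with OHT in PRC1CPM cells, and 156 in Control against 163 in PRC1DEG cells. It kept 93.1% after OHT (77.1% to 112%) and 97.6% in PRC1DEG cells (78.4% to 122%). The Hoxd3 end, with a similar number of reads in the reference groups, kept 38.2% and 28.0%.

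A group of single fragments lay in the gene desert between Mtx2, which encodes a mitochondrial outer membrane protein, and Hnrnpa3. The nearest (chr2:75122333-75123134, 431 kb away) had 13 reads without and 20 with OHT in PRC1CPM cells, and 20 in Control against 29 in PRC1DEG cells. The next (chr2:75159827-75161228, 469 kb away) had 25 and 16, then 23 and 35 reads. The fragment directly beside it (chr2:75161229-75161961), which overlaps the same 2 lincRNA genes, had 16 and 19, then 13 and 26 reads.

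In PRC1DEG cells these 3 fragments were higher than in Control, with log2 changes of 0.44, 0.51 and 0.90, although each interval includes 0. Their summed reads, a sum formed after the values were seen, were 150% of Control (108% to 209%). After OHT the sum was 111% of untreated (76.6% to 162%). They are neighbours, and 2 of them adjoin, so they are not separate observations.

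On the centromeric side the end with the most reads (chr2:74066944-74067375, 624 kb away, intergenic) had 14 reads without and 10 with OHT in PRC1CPM cells, and 9 in Control against 5 in PRC1DEG cells. The other 2 ends on that side had between 3 and 12 reads in each group. As a class the 7 other sites had a median log2 change of -0.10 after OHT and of 0.33 in PRC1DEG cells (6 with a ratio). They kept 94.5% of their normalized reads after OHT (80.6% to 111%) and 109% in PRC1DEG cells (91.3% to 130%), beside 37.4% and 20.5% at the PCGF2 sites of the same bait. A summit score of at least 5 was found for 5 of them before OHT and 3 after it, and for 1 each in Control and PRC1DEG cells. The ends at chr2:75122333-75123134 and chr2:75161229-75161961 passed only after OHT, so their OHT value had a part in their selection. These were the only 2 ends higher after OHT. No PCGF2 site passed in a treated group, and the part of selection in the contrast of the classes was not tested. The end nearest to Hnrnpa3 held 236 of the 325 untreated and 201 of the 281 OHT reads of this class.

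The ends at PCGF2 sites were shared with other baits of chromosome 2. Another bait had an end overlapping 6 of the 8, and within 5 kb of 7, and none came within 5 kb of the 7 other sites. The Sp5 bait, at a zinc finger transcription factor gene 4.22 Mb to the centromeric side, shared the Dlx1/Dlx2 end exactly. From Sp5 it held 234 weighted reads without and 54 with OHT in PRC1CPM cells, and 162 in Control against 28 in PRC1DEG cells, log2 changes of -1.99 and -2.63. The nearby Dlx2 bait had an end inside it (chr2:71527527-71528147, 18.9 kb from Dlx2) with 166 and 93, then 184 and 94 reads. The log2 changes of that local end were smaller, -0.71 and -1.07. Both Lrp2 ends fell within a single end of the Sp5 bait, 0.890 Mb from Sp5, with 58 and 21, then 53 and 12 reads. There the log2 changes were -1.34 (-2.05 to -0.62) and -2.24 (-3.13 to -1.35). From Hoxd10 itself each Lrp2 end had at most 4 reads in a group, and every interval there included no change. The Sp5 view does not stand in for the Hoxd10 one.

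The Pax6 end fell within a longer end of the Nkx2-2 bait (chr2:105666283-105677380), at a homeobox gene 72.5 Mb to the telomeric side of Hoxd10. That whole longer end, 41.5 Mb from Nkx2-2, held 55 reads without and 17 with OHT in PRC1CPM cells. It held 44 in Control against 7 in PRC1DEG cells. Its log2 changes were -1.57 and -2.75, with intervals below 0. The reads of the Pax6 fragment alone from Nkx2-2 are not given. An end of the Dlx2 bait inside the Sp9 end (chr2:73269303-73279031) had 72 and 26, then 59 and 11 reads. Ends of the Dlx2 bait within 5 kb of the Lrp2 ends, and of the Nkx2-2 bait within 5 kb of the repeat end, had at most 6 reads in any group. Where they had a ratio after OHT, its interval included 0.

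The Dlx2 bait gave the reverse view of the contact between Hoxd10 and the Dlx genes. Its fragment (chr2:71546566-71546952) lies just outside the Dlx1/Dlx2 end of Hoxd10. It had 8 ends in the HoxD cluster, all at PCGF2 sites, and together they lay within 5 kb of a TSS of each of the 10 genes from Evx2 to Hoxd1. The end with the most reads spanned Hoxd13, Hoxd12 and Hoxd11 (chr2:74665459-74683951), with 85 and 28, then 66 and 14 reads. The end around Hoxd3 and Hoxd4 (chr2:74731982-74742093), which contains the local Hoxd3 end of the Hoxd10 bait, had 45 and 14, then 38 and 6. The end beside the Hoxd10 bait (chr2:74688755-74690442) had 10 and 4, then 4 and 1. Summed over the 8 ends, 39.2% of normalized reads were kept after OHT (29.6% to 51.9%) and 17.4% in PRC1DEG cells (11.7% to 25.7%). From the Hoxd10 side the Dlx1/Dlx2 end kept 31.9% and 11.2%. Both baits were captured from the same samples, so the views are not independent.

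Beside the other baits, Hoxd10 stood toward the low end in the share kept, but was not the lowest. Among the 16 named baits with at least 3 contacts at PCGF2 sites it ranked 3 from the lowest after OHT and 2 in PRC1DEG cells by summed reads, and 6 and 5 by the median log2 change. The rank of 5 uses a PRC1DEG median of -1.68, which is the value of the repeat end at the floor. Without that end the median was -1.34, and the rank was not computed again. By summed reads Nptx1, which encodes a neuronal pentraxin, kept less after OHT, 30.7% (26.3% to 35.8%), and Nkx2-1, a homeobox gene, kept less in PRC1DEG cells, 17.7% (16.4% to 19.0%), both with intervals that overlap those of Hoxd10. Its 37.4% after OHT could not be separated from Nkx2-2 (36.7%, 34.4% to 39.2%) or Sp5 (39.7%, 35.2% to 44.8%), which are also on chromosome 2. The Dlx2 bait kept 48.4% (41.0% to 57.1%), an interval that overlaps that of Hoxd10. In PRC1DEG cells Hoxd10 kept 20.5%, Sp5 22.8%, Nkx2-2 23.0% and Dlx2 29.5%. The Gata5 bait had only 2 contacts at PCGF2 sites, which kept 76.0% and 77.6%.

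The 4 HoxB baits, Hoxb1, Hoxb2, Hoxb3 and Hoxb5, kept between 59.2% and 63.8% after OHT, and none of their counting intervals overlapped that of Hoxd10. In PRC1DEG cells they kept between 29.8% and 56.3%, and again no interval overlapped. Their contacts were nearer, with median distances of 121 to 678 kb against 5106 kb, and had many more reads, from 1646 to 13014 in untreated PRC1CPM cells against 508. The part of distance in this difference was not tested.

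By the pair of median changes, with the repeat end included, the baits most like Hoxd10 were Isl1, Nkx2-1 and Dlx2. Their Euclidean distances from Hoxd10 in the plane of the medians were 0.24, 0.30 and 0.35 log2 units. Their median log2 changes after OHT were -1.32, -1.01 and -0.93, and in PRC1DEG cells -1.45, -1.56 and -1.66. The list rests on the Hoxd10 median of -1.68 in PRC1DEG cells, the floored value of the repeat end. Without that end the Hoxd10 median was -1.34, above those of all the baits listed, and the list was not computed again.

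**Figure D4:**
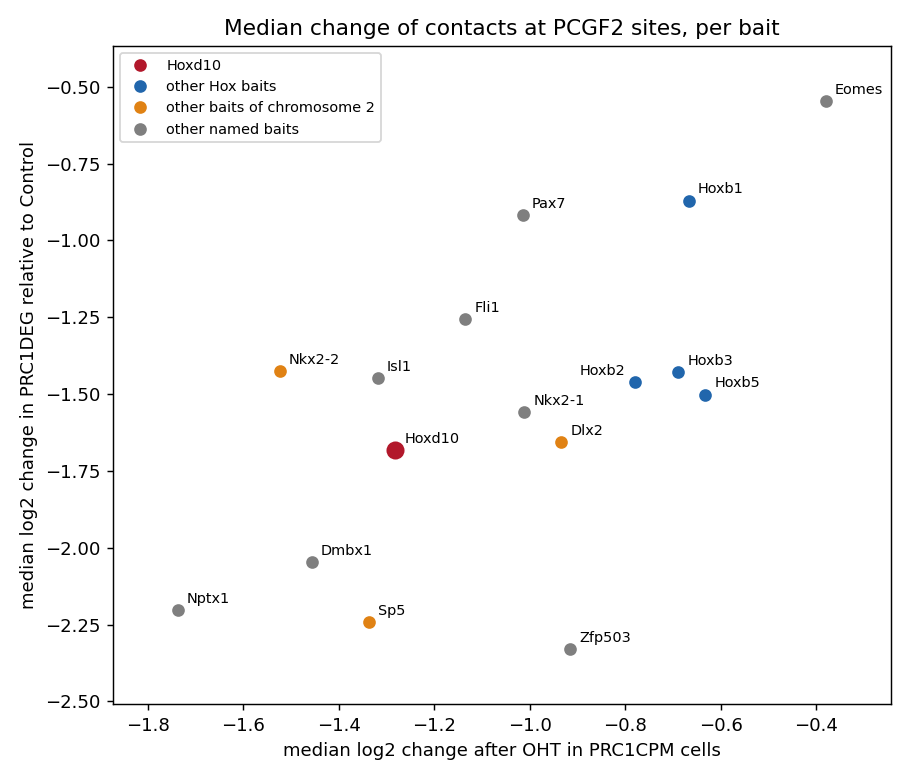
Median log2 change of contacts at PCGF2 sites after OHT (horizontal axis) and in PRC1DEG cells relative to Control (vertical axis) for the 16 named baits with at least 3 such contacts, 1 point for each bait; Hoxd10 is red, the other Hox baits blue, other baits of chromosome 2 orange and the rest grey. Hoxd10 lies at -1.28 and -1.68, and the 4 HoxB baits lie to its right, between -0.78 and -0.63 on the horizontal axis. Without the repeat end the vertical value of Hoxd10 would be -1.34.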

How the data were processed

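CaptureC was carried out on 12 ESC samples in 4 groups of 3 replicates. The authors aligned and filtered reads to mm10 with HiCUP and Bowtie2, merged replicates and obtained weighted reads and scores with CHiCAGO. Fragments scoring 5 or more in any group were joined into interactions when close together. The deposited signal values are weighted reads scaled to the captured promoters' reads and to how many promoters were captured, summed over fragments or for the summit. The deposited score values are CHiCAGO scores of the same fragments. In the auxin libraries 2 steps between values were found, which split the baits into sets of 19 and 25. Hoxd10 is in the set of 19.

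Weighted reads were recovered from the steps. Ratios used summed normalized reads, with values under 3 reads set to 3 and no ratio where both groups were at or under 3. No p-value was computed, since each group is 1 merged column. A contact was called at a summit score of at least 5. The 24 named baits matched GRCm38, and TSSs are those of protein-coding transcripts in GENCODE M21. Promoter bases are those before the RefSeq start. Every contact at a PCGF2 site and the 5 other sites with most reads in untreated and Control libraries are named; the members, gene lists and comparisons were chosen with earlier results of these data known. Functions were tested on simulated data. Analyses used Python 3.11.15, pandas 2.3.3 and scipy 1.17.1.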

Additional observations from a re-analysis of the deposited data

Results flagged for a closer look

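The change at the Dlx1/Dlx2 end differed between the systems by -1.51 on the log2 scale (PRC1DEG minus OHT), with a counting interval from -2.34 to -0.69, and it was noted because this interval does not reach 0. At 2 other sites the change ran in opposite directions in the 2 systems, and the difference was not tested against replicates. At chr2:75159827-75161228 OHT gave a log2 change of -0.52 and PRC1DEG one of 0.51, a difference of 1.02 with a counting interval from -0.16 to 2.20. At chr2:73907832-73908395, 2.93 kb from the TSS of Atp5g3, it was -0.65 and 0.22, a difference of 0.87 (-1.45 to 3.20) that rests on 12, 7, 4 and 5 reads.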

How the results depend on the processing

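The median log2 change at PCGF2 sites was negative under all 22 alternatives tried for the 2 systems. These alternatives reuse the same contacts, and none of those contacts passed the score in a treated group. Their shared sign is therefore not independent evidence of a fall. With a pseudocount 10 times larger and no floor the median was -0.58 after OHT and -1.17 in PRC1DEG cells. With contacts over 1 Mb only it was -1.26 in PRC1DEG cells. Leaving out the repeat end, an alternative added after seeing the data, gave -1.34 in PRC1DEG cells. The share of reads kept in PRC1DEG cells was 14.4% without the contact with most reads, which is also the only one within 100 kb. At other sites the OHT change of -0.10 turned to 0.094 when centred on the median of all interactions at other sites, which was -0.20 after OHT and 0.094 in PRC1DEG cells. With a score of at least 10, 0 PCGF2 sites were called in untreated PRC1CPM cells and 1 in Control, and with a mean score over fragments of at least 5, 1 was called in untreated PRC1CPM cells. With class limits of 200 kb and 2 Mb, 1 contact lay in the middle class. At least 2-fold lower were 99 of all interactions after OHT and 90 in PRC1DEG cells, in place of 211 and 141 at 1.5-fold. A TSS inside the end was found for 2 in place of 7 contacts. Another 60 alternative values stayed within set limits. For counts the limit was 1.5 times the count, and for shares kept it was the counting interval. For median changes it was the medians of the single contacts' interval limits, -4.83 to -1.32 at PCGF2 sites in PRC1DEG cells. Those limits are wide and are not an interval of the median itself, so staying inside them says little. No paired analysis was possible because each column merges the replicates of its group, and leaving out replicates was not run for the same reason. Single contacts over 5 Mb had 0 to 9 reads, and of these 5 the counting interval lay below no change only at the Pax6 and repeat ends, in PRC1DEG cells. Those intervals rest on 4 and 9 Control reads against 0, and were not checked on simulated data at so few reads. Both ends had a score above 0 in Control only, so the Control value had a part in their selection, and no conclusion is drawn from them.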
